A study of Mus musculus with 7 samples.

Results

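The regions described here are 4038 stretches of mouse chromatin, away from gene starts, where both Control ATAC-seq libraries had a peak and neither TRF2KO library did. They were chosen by measured values, namely the MACS peak lists of the 4 ATAC libraries on autosomes 1 to 19. Peaks that shared at least 1 bp were merged into 120444 regions, and 77579 of these lay more than 3 kb from every transcript start annotated in GENCODE release M21 and were called distal. The 4038 Control-only regions were 5.21% of the distal regions. The opposite class, with a peak in both TRF2KO libraries and in neither Control library, held 943 regions or 1.22%. These counts follow from the rule that made the classes, so they are descriptions, and with 2 libraries against 2 no permutation of the labels can give a p under 0.333.

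The cells were muscle stem cells (MuSCs), sorted from hind limb muscle of C57BL/6 mice as CD45-/CD31-/CD11b-/Sca1- cells positive for VCAM (or CD34) and alpha7-integrin. Control MuSCs were labelled Wildtype. TRF2KO MuSCs came, by the methods of the study, from mice with a floxed TRF2 allele and a Pax7-CreERT2 driver, in which tamoxifen deletes the gene in Pax7-expressing cells. The genotype field of the TRF2KO libraries also reads Wildtype, so their titles were used. All ATAC libraries were labelled 0 h, with no age given, and no label states whether Control mice received tamoxifen. TRF2 itself was mapped by CUT&Tag, in 2 TRF2 libraries and 1 IgG library from wild-type tibialis anterior MuSCs labelled 3 days after notexin, a muscle-damaging toxin, although the published methods give a shorter interval, gastrocnemius muscle as well, and mice with a Pax7-driven Cre and a TdTomato reporter.

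ATAC-seq cuts open chromatin with a transposase, and distal open regions in many tissues are enhancers, stretches of DNA that transcription factors occupy to regulate genes at a distance. In the muscle lineage such factors include MyoD and Myf5, which pair with E proteins and read the E-box, a short sequence of the form CANNTG. AP-1 factors, dimers of Fos and Jun proteins, read a different sequence and are known as early responders to stress and to muscle stem cell activation. TRF2, the product of Terf2, is best known as a shelterin protein of telomeres.

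Sequences of 7 Control-only regions are shown because they carry the features that the counts below turn on. Each is the window of 100 bp on either side of the summit of the region's highest peak, from the RefSeq copy of build GRCm38 (mm10), plus strand, with matches to the E-box CAGCTG or to the AP-1 sequence TGANTCA in capitals. The first 3 regions had some of the highest folds among the Control-only regions, and each held at least 1 E-box. The region nearest to Fgfr1op ranked first by fold and lay at chr17:8197488-8197688, between genes. The window nearest to Aifm2, at chr10:61747430-61747630 in an intron of H2afy2, held 3 E-boxes. The window nearest to 4933417O13Rik, at chr7:143401579-143401779 in an intron of Kcnq1, held 4. The window nearest to Gm4821, at chr14:78398036-78398236 and intergenic, held an E-box beside 2 AP-1 matches, and that nearest to Dusp22, at chr13:30695371-30695571 in an intron of that gene, held an AP-1 match alone. The last windows, nearest to Gm22777 and Tor1aip2, were among the few that also overlapped a TRF2 region. They lay at chr13:57001905-57002105 and at chr1:156070263-156070463, both between genes.
Fgfr1op: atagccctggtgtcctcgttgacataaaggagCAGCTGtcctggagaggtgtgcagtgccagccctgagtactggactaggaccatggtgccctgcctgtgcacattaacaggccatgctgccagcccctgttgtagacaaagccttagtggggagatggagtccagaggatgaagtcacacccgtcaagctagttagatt
Aifm2: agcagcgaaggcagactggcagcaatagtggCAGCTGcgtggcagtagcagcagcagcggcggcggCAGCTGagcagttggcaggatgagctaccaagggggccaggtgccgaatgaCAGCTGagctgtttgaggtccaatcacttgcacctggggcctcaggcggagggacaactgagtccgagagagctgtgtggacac
4933417O13Rik: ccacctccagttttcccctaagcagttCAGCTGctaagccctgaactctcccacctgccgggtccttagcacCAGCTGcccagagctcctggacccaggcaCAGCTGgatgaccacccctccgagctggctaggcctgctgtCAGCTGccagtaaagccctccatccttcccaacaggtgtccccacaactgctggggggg
Gm4821: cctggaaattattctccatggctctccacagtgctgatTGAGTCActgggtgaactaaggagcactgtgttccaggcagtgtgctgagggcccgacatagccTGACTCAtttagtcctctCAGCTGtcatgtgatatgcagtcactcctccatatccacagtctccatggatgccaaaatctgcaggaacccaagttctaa
Dusp22: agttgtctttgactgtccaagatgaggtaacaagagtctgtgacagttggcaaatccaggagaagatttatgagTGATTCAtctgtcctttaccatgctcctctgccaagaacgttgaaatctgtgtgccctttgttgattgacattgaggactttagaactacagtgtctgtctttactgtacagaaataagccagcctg
Gm22777: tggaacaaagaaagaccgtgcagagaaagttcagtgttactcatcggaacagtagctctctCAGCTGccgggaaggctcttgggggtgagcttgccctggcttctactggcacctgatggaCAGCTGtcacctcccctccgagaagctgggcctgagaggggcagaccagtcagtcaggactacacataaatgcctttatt
Tor1aip2: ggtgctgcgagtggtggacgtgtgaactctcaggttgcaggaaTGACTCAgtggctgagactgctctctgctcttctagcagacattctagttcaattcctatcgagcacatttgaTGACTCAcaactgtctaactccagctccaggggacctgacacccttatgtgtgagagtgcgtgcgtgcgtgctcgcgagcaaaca

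The 4 ATAC lists held 87394 and 98558 autosomal peaks in Control and 83039 and 82556 in TRF2KO. The background pileup recovered from the folds rises with the number of reads or fragments counted. Control libraries had 3.35 and 4.56 and TRF2KO libraries 3.37 and 3.41, so Control replicate 2 was the deepest library. Its lowest listed fold was 2.34, against 2.53, 2.52 and 2.497 in the other libraries. All 10 MuSC genes checked, Pax7 and Myod1 among them, had a peak over a start in every library. Start peaks were found for 2 to 4 of 20 immune genes, with none at Ptprc, and for 13 to 16 of 20 endothelial genes, with none at Pecam1. They were found for 14 or 15 of 20 fibroblast genes, for 12 to 14 of 14 smooth muscle and pericyte genes, for 8 to 10 of 11 glial genes and for 6 or 7 of 9 tenocyte genes. The share of all genes with a start peak was not worked out. These counts therefore have no background and do not measure the purity of the cells. The peak over the start of Terf2, the deleted gene, had folds of 54.3 and 48.4 in Control and of 21.5 and 18.6 in TRF2KO, and the sources used here do not say whether that start lies in the deleted part.

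Most Control-only distal regions were weak peaks. Fold here is the summit pileup over the background of the same library, as MACS lists it. No TRF2KO value exists for a region without a TRF2KO peak. The median fold was 4.37 in Control replicate 1, with 10% of regions under 3.22 and 10% over 6.67. In Control replicate 2 the median was 4.14, with 10% under 2.88 and 10% over 6.12. Distal regions shared by all 4 libraries, of which there were 35877, had median folds of 11.7 and 10.4 in the same libraries. The median recovered summit pileup of the Control-only regions was 18 and 22, against 50 and 57 at shared regions. They were also narrower, with a median width of 385 bp against 830 bp.

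**Figure D1:**
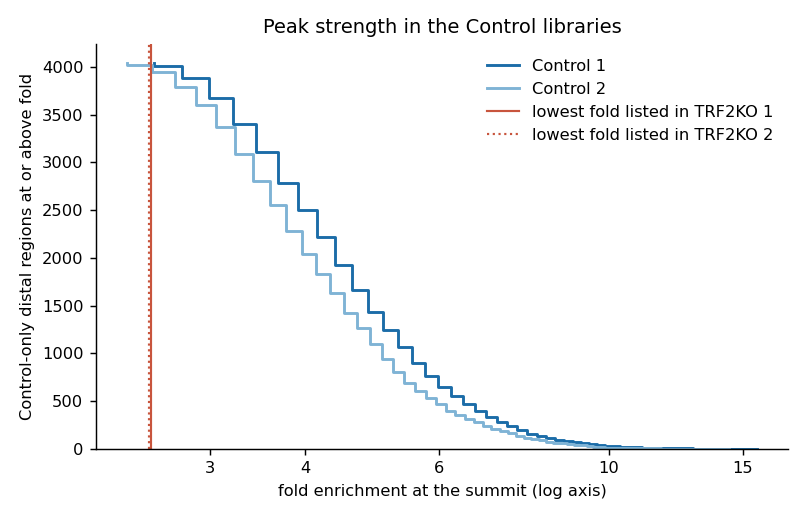
Number of Control-only distal regions (vertical axis from 0) whose fold enrichment at the summit is at or above the value on the horizontal log axis, in Control replicates 1 and 2, with vertical lines at the lowest folds listed in the TRF2KO libraries, 2.52 and 2.497. Both curves drop from 4038 regions and pass their middle at medians of 4.37 and 4.14, and few regions exceed 10.

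In 2157 regions (53.4%) both Control folds were at least 1.5 times 2.52, the higher of the lowest folds listed in TRF2KO. In 812 regions (20.1%) both were at least 2 times that fold, in 103 at least 3 times and in 8 at least 4 times. In 23 regions the lower Control fold was under it. The Control peaks both had a -log10 q of at least 5 in 2304 regions (57.1%). A peak absent from a TRF2KO list only failed the caller's threshold there, and a smaller opening cannot be told apart from fewer open cells in the sorted population.

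The 15 regions of highest lower Control fold ranged from 9.54 to 14.4 on that measure. The first, nearest to Fgfr1op, had folds of 15.6 and 14.4, from recovered summit pileups of 67 and 79. The second, nearest to Gm37903, had folds of 15.4 and 11.7. The region in H2afy2, which encodes a macroH2A histone, had 12.0 and 11.5. The region nearest to Gm29543 had 12.9 and 11.3, and one in an intron of Prpf6, a splicing factor gene, had 11.3 and 14.4. The region nearest to Alx4, a homeodomain gene, had 10.8 and 12.2. In Dusp22, a phosphatase gene, the values were 12.0 and 10.8. All of these stood well above the lowest folds listed in TRF2KO. Of the 15 regions, 8 lay in introns, 7 held the E-box CAGCTG and 3 an AP-1 match. Of the 15, 9 had no TRF2KO region from any caller, and 2 windows were at least 50% repeat-masked.

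The 3-kb limit cut through a continuum. The members just outside it lay 3003, 3005 and 3005 bp from the starts of Endov, Aptx and Rapgef1, with Control folds of 7.13 and 5.22, of 3.68 and 3.60, and of 4.14 and 3.06. The Control-only regions just inside it lay 2999, 2998 and 2988 bp from Gpbar1, Pgs1 and AC167363.1, with folds of 3.68 and 3.24, of 3.45 and 3.60, and of 3.68 and 3.24. There were 1340 Control-only regions inside the limit.

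The same reads had been passed to 2 other callers, and these graded the Control-only regions differently. GoPeaks had a region over 52.7% and 56.1% of them in Control and over 6.12% and 4.53% in TRF2KO. Over all distal regions those shares were 56.01% and 57.3% and 50.2% and 47.4%, so the Control shares were near the background and the TRF2KO shares below it. SEACR had one over 25.1% and 30.01% in Control and over 20.5% and 19.8% in TRF2KO. Its shares over all distal regions were higher in both genotypes, at 35.9% and 37.1% and at 33.6% and 32.4%. In 1394 regions (34.5%, 33.1 to 36.0) at least 1 TRF2KO library had a GoPeaks or SEACR region. For distal regions as a whole that share was 68.3%. In the consensus lists that the authors built from all callers, 1598 Control-only regions (39.6%) were in the Control list alone, against 13.4% of all distal regions, and 82 (2.03%) were in the TRF2KO list alone. Another 968 (24.0%) were in both and 1390 (34.4%) in neither. In all, 63.5% were in the Control list and 26.0% in the TRF2KO list, against 66.5% and 56.9% of all distal regions. These lists draw on the MACS peaks that the rule used. A set of 1327 regions had a GoPeaks region in both Control and in neither TRF2KO library. The shares in both lists, in neither, in the TRF2KO list alone and in this set were not counted over all distal regions.

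The E-box CAGCTG, a form bound by MyoD, was found in 1405 of the 4038 Control-only windows, or 34.8% (33.3 to 36.3). Its share over all 77579 distal regions was 28.0%. In the TRF2KO-only distal regions it was 18.1% (15.7 to 20.7). A class of weak shared regions was also set beside them. It held shared distal regions with a lower Control fold of at most 5.75, the 90th percentile of the Control-only regions. Its median Control folds were 5.29 and 4.68, still above the 4.37 and 4.14 of Control-only regions. In these 7532 regions the share was 24.8% (23.8 to 25.8), and in all shared distal regions, most of which were much stronger, 33.2% (32.8 to 33.7). The Control-only share was thus above that of weak shared regions, which were not matched in fold, and close to that of all shared regions. The limit picks shared regions that were weak in Control. With the same limit on the lower TRF2KO fold instead, 10076 shared regions had the E-box in 30.7% (29.8 to 31.6). All intervals given are exact binomial ones at 95%, while a share of 0 is given the limit that 3 counts set. They take each region as independent and reflect counting error alone, and no test was run because regions are not replicates.

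**Figure D2:**
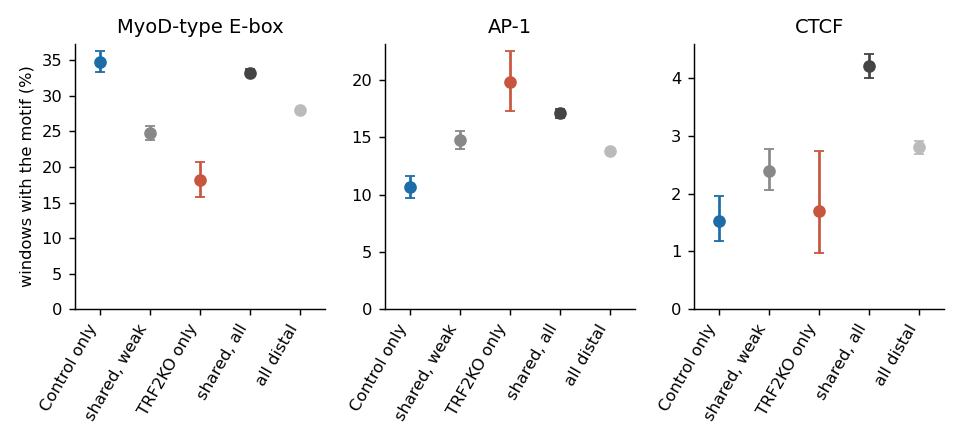
Share of summit windows (percent, vertical axes from 0) that hold the E-box CAGCTG, the AP-1 sequence or the CTCF core, in Control-only, weak shared, TRF2KO-only, all shared and all distal regions, with exact 95% intervals as bars. The E-box is at 34.8% in Control-only and 18.1% in TRF2KO-only regions, and AP-1 runs the other way at 10.6% and 19.8%.

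AP-1 ran in the opposite direction. TGANTCA was in 429 Control-only windows, or 10.6% (9.69 to 11.6), against 14.8% (13.97 to 15.6) of weak shared and 19.8% (17.3 to 22.5) of TRF2KO-only windows. Over all distal regions it was 13.8%. Windows with the E-box and no AP-1 match made up 31.4% of Control-only, 21.9% of weak shared and 14.8% of TRF2KO-only regions, with 28.6% in all shared and 24.5% in all distal regions. Windows with AP-1 and no E-box made up 7.21%, 11.8% and 16.5%, with 12.4% and 10.3% in the same backgrounds. Both motifs stood in 3.42%, 2.92% and 3.29%, with 4.68% and 3.47%.

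The E-box share followed peak strength within the Control-only regions. Split into 4 ranges by the quartiles of the lower Control fold, the weakest range ran from 2.34 to 3.22, and there 26.6% of windows held CAGCTG. The share was 32.1% in the second range and 37.9% in the third. It reached 40.9% in the strongest, above 4.68. Shared distal regions in the same fold ranges had 18.8%, 22.2%, 24.6% and 30.4%, a lower share in each of the 4 ranges. The ranges match the classes on Control fold alone, which the rule had used, and shared regions limited by TRF2KO fold had more E-boxes, as given above. In the 103 regions at 3 times the TRF2KO limit or more the share was 48.5% (38.6 to 58.6). The AP-1 share lay between 9.10% and 11.7% over the same ranges, with overlapping intervals.

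**Figure D3:**
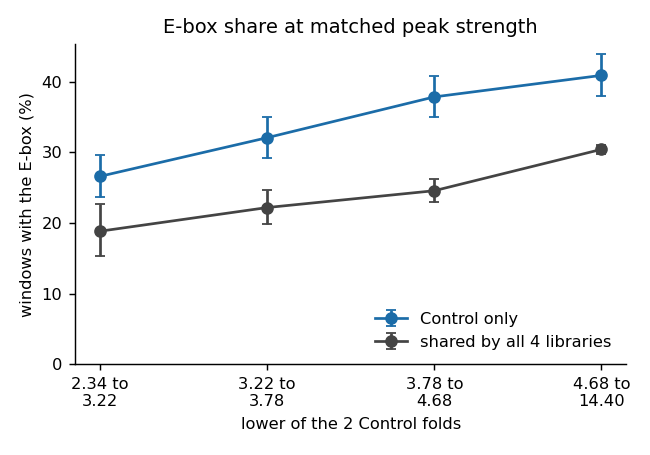
Share of windows with the E-box (percent, vertical axis from 0) by the lower of the Control folds (horizontal axis, 4 ranges set by the quartiles of the Control-only regions), for Control-only regions and for distal regions shared by all 4 libraries, with exact 95% intervals. Both lines rise, from 26.6% to 40.9% and from 18.8% to 30.4%.

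Both motifs also graded with the number of libraries of the other genotype that had a peak. Among distal regions with a peak in both Control libraries and a lower Control fold of at most 5.75, the E-box share was 33.9% with no TRF2KO peak, 28.9% with 1 and 24.8% with 2. The AP-1 share was 10.7%, 13.1% and 14.8%. Regions with a peak in both TRF2KO libraries were limited to the same range by their lower TRF2KO fold. Their E-box share was 18.4% with no Control peak, 19.3% with 1 and 30.7% with 2, and their AP-1 share was 19.6%, 17.5% and 13.4%. The regions with peaks in all 4 libraries differ between the sides, since the fold limit was on different libraries. Regions lacking a peak in 1 library of the other genotype were in between for both motifs on both sides.

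**Figure D4:**
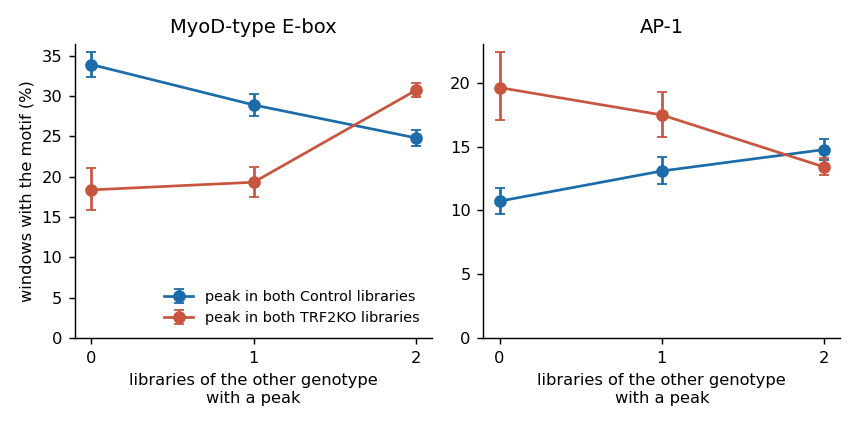
Share of windows with the E-box (left) or the AP-1 sequence (right), in percent from 0, by the number of libraries of the other genotype with a peak (0, 1 or 2), for weak distal regions with a peak in both Control or in both TRF2KO libraries, with exact 95% intervals. With Control peaks the E-box falls from 33.9% to 24.8% and AP-1 rises from 10.7% to 14.8%, and with TRF2KO peaks the directions are opposite.

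The E-box share was close between genomic places, with overlapping intervals, and differed more among other subsets of the Control-only regions. The motif was in 34.4% (32.4 to 36.3) of the 2333 windows in introns and 37.3% (31.1 to 43.9) of the 233 in exons. It was in 35.1% (32.6 to 37.6) of the 1472 intergenic ones. In the 1340 Control-only regions near starts, which the 3-kb limit had set aside, it was in 34.8% (32.2 to 37.4). Members with no TRF2KO region from any caller had 37.6% (35.7 to 39.5), and those with one had 29.5% (27.1 to 31.95). The 1327 regions that GoPeaks also placed in Control alone had 42.7% (40.05 to 45.4). Members over 5 kb from a region shared by all 4 libraries had 37.5% (35.5 to 39.7), and the 670 within 1 kb of one had 28.5% (25.1 to 32.1).

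The matches were concentrated near the summits. In the 20-bp bin centred 30 bp on the lower-coordinate side of the summit, 6.49 E-box matches were found per 100 Control-only regions, against 1.40 per 100 in bins beyond 140 bp. The corresponding bin of weak shared regions held 3.66 and that of TRF2KO-only regions 2.65. Beyond 140 bp those classes had 1.33 and 0.937. All shared distal regions were close to the Control-only ones, with 5.75 in that bin and 1.37 beyond 140 bp. Both motifs peaked on the lower-coordinate side of the listed summit in Control-only, weak shared and TRF2KO-only regions. The E-box in weak shared regions was highest in the bin next to the summit, also on that side. A read shift for the transposase is not stated in the sources used here, and whether it sets this offset was not tested. AP-1 was highest in the bin 50 bp before the summit of Control-only regions, at 1.76 per 100, and 70 bp before that of TRF2KO-only regions, at 3.82.

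**Figure D5:**
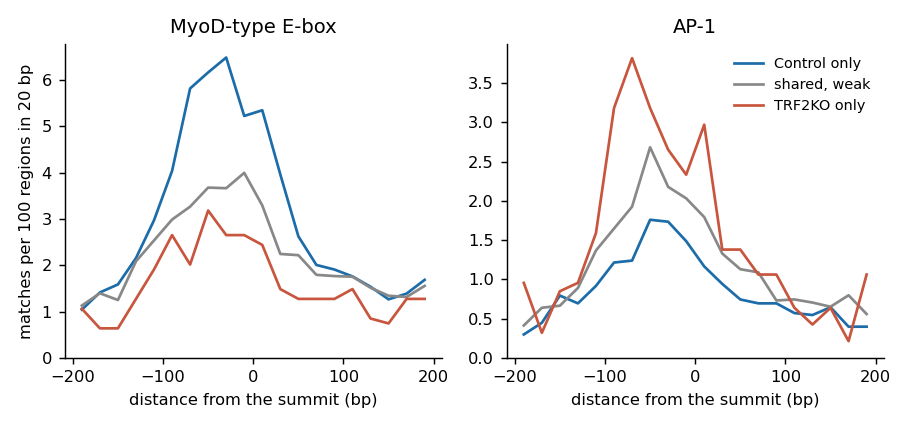
Matches per 100 regions in 20-bp bins (vertical axes from 0) by distance from the summit in bp (negative: lower coordinates), for the E-box (left) and the AP-1 sequence (right) in Control-only, weak shared and TRF2KO-only distal regions. Among the classes drawn, E-box matches are densest in Control-only regions, at 6.49 per 100 in the highest bin, and AP-1 matches in TRF2KO-only regions, at 3.82.

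Several E-boxes in 1 window were about as frequent as in all shared regions. At least 2 matches stood in 278 Control-only windows, or 6.88% (6.12 to 7.71). The share was 3.13% (2.75 to 3.55) in weak shared and 1.70% (0.973 to 2.74) in TRF2KO-only windows. It was 6.49% (6.24 to 6.75) in all shared and 4.82% in all distal windows. The 4 matches of the window nearest to 4933417O13Rik and the 3 of the Aifm2 window, printed above, are of this kind.

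Among the 10 forms that CANNTG takes on both strands, CAGCTG showed the widest spread between the classes. The next was CAGATG, at 23.0% of Control-only, 20.5% of weak shared and 15.7% of TRF2KO-only windows, and 21.01% over all distal regions. CACCTG, read by E2A and ZEB proteins, was at 16.1%, 12.5% and 11.8%, and 15.02% over all. CAACTG was at 14.8%, 12.1% and 11.7%, and 12.6% over all. The remaining forms did not rank the classes this way or stayed close. CAAATG was at 13.9%, 14.4% and 13.8% (12.9% over all), and CACGTG, the E-box of Myc and clock factors, was at 2.75%, 4.12% and 3.61% (3.59% over all). Any CANNTG other than CAGCTG was in 69.2%, 65.7% and 63.9% of windows. With the bases beside the core, the most frequent octamer of the 1736 matches, ACAGCTGC, made up 18.4% of them (16.6 to 20.3), against 17.3% in weak shared and 17.4% in TRF2KO-only regions. CCAGCTGC made up 12.8% (11.3 to 14.5), against 15.9% (14.4 to 17.5) and 18.4% (13.2 to 24.7).

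Base composition was close between the classes, with a median G+C of 50.2% in both Control-only and weak shared windows and of 49.8% in TRF2KO-only windows. Among windows of 45 to 55% G+C, the E-box was in 36.4% (34.4 to 38.3) of 2412 Control-only, 25.5% (24.2 to 26.8) of 4463 weak shared and 18.5% (15.3 to 22.1) of 535 TRF2KO-only windows. The CpG dinucleotide was sparser, at 2.66 per Control-only window against 3.37 and 3.101.

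Other factors' sequences differed by fewer percentage points, although the share of Klf/Sp sites differed by a larger ratio than that of the E-box. Klf/Sp sites (GGGCGGG) were in 1.51% (1.16 to 1.94) of Control-only windows, 3.05% of weak shared and 3.71% of TRF2KO-only windows, and in 2.97% over all distal regions. Ets sites (CAGGAAG) were in 8.74% (7.89 to 9.66), 11.2% and 10.9% (10.2% over all). Rbpj sites (GTGGGAA), read by the DNA-binding partner of Notch, were in 5.05% (4.40 to 5.77), 5.76% and 7.64% (5.63% over all). Forkhead sites (TGTTTAC) were in 2.18% (1.75 to 2.68), 2.81% and 4.03% (2.63% over all). Sox sites (CCATTGTT) were more frequent in Control-only windows, at 1.09% (0.793 to 1.46) against 0.584% and 0.636% (0.748% over all). Tead sites (CATTCC) and Runx sites (TGTGGTT) were closer, at 14.7%, 15.5% and 14.4% (14.1% over all) and at 4.80%, 5.34% and 5.94% (4.85% over all). The CTCF core was in 1.54% (1.18 to 1.96) of Control-only windows, against 2.403% of weak shared, 1.70% of TRF2KO-only, 4.21% of all shared and 2.80% of all distal regions. The Mef2 motif was in 1.61%, 2.30% and 2.86% (1.72% over all). The sequences tried for paired homeodomain (TAATNNATTA), nuclear factor I (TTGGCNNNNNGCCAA), glucocorticoid receptor (GNACANNNTGTNC), NF-kappa-B (GGGANNTTCC) and the cAMP response element (TGACGTCA) were each in 0.0495% to 0.916% of Control-only windows and in 0.0438% to 1.12% of all distal ones. All sequences were searched on both strands. CAGCTG and CACCTG are both forms of CANNTG, and the other sequences were counted whether or not they overlapped. A match describes the letters and is not evidence that a factor was bound.

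TRF2 was seldom found at these regions. A TRF2 region, with a peak in both CUT&Tag libraries, overlapped 19 of the 4038, or 0.471% (0.284 to 0.734). The share was 1.33% (1.08 to 1.61) of weak shared, 1.27% (0.659 to 2.21) of TRF2KO-only and 3.79% (3.60 to 4.00) of all shared distal regions, and 2.04% over all distal regions. Within the 4 fold ranges, weakest first, it was 1.15%, 0.296%, 0.275% and 0.281% of Control-only regions. Shared distal regions in these ranges had 1.07%, 1.52%, 1.24% and 1.84%. Median widths were 385 bp in Control-only, 610 bp in weak shared, 373 bp in TRF2KO-only and 830 bp in all shared regions. The shares were not adjusted for width. Single libraries gave 51 and 73 regions, 1.26% and 1.81% against 3.83% and 4.79% over all, and IgG gave 2. Of the 7287 TRF2 regions in all, 71.2% lay within 3 kb of a start. The TRF2 and ATAC libraries came from muscle in different injury states, so an overlap does not place TRF2 at a region in the cells that ATAC measured.

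The 19 regions with TRF2 had lower Control folds of 2.34 to 6.12, with 10 in the weakest and 3 in the strongest of the 4 fold ranges. One 82771 bp from Tspan12 had folds of 5.52 and 5.40, and the one nearest to Gm22777 had 5.75 and 5.04. The regions nearest to Tor1aip2 and in an intron of Gpat3 had 5.52 and 4.50, and 4.60 and 4.50. Of the 19, 9 held an AP-1 match (47.4%, 24.4 to 71.1) and 7 the E-box (36.8%, 16.3 to 61.6). These motifs were in 10.6% and 34.8% of all Control-only windows and in 13.8% and 28.0% of all distal windows. Their shares in other distal regions that overlap a TRF2 region were not counted. Among the 19, 14 had no TRF2KO region from any caller, against 65.5% of all Control-only and 31.7% of all distal regions. The G4 pattern, defined as 4 stretches of 3 or more G whose loops hold up to 7 bases, was in 0 of the 19, which allows up to 15.8% by a limit of 3 counts, and the same holds for TTAGGG, the telomere repeat unit. Across all Control-only windows the G4 pattern was in 3.76% (3.20 to 4.40), against 4.77% of weak shared and 4.40% of all distal windows. TTAGGG was in 6.98%, against 6.93% and 7.17%.

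The Control-only regions lay in introns in 2333 cases, or 57.8% (56.2 to 59.3), by the position of the summit. The share was 54.5% over all distal regions, 54.0% (52.8 to 55.1) in weak shared and 50.7% (47.4 to 53.9) in TRF2KO-only regions. A further 5.77% were in exons and 36.5% were intergenic, against 5.84% and 39.6% over all distal regions. The distance to the nearest start had quartiles of 7.32 and 33.5 kb, against 7.03 and 29.1 kb over all distal regions. The farthest lay 529 kb away, and 608 (15.1%) were over 50 kb away, against 12.2% over all distal regions. The nearest region shared by all 4 libraries was at a median of 5580 bp, and 670 (16.6%) had one within 1 kb. The nearest TRF2KO peak was at a median of 3454 bp, and 101 (2.501%) had one within 200 bp. Windows that were at least 50% repeat-masked made up 3.67%, against 4.13% over all distal regions. Across the 19 autosomes the Control-only share of distal regions ran from 4.59% on chromosome 18 to 6.08% on chromosome 15. Within 5 Mb of the distal chromosome ends, where telomeres lie, were 5.23% (4.56 to 5.96) of the Control-only and 5.18% of all distal regions.

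The Control-only regions were spread over many genes. By nearest start they fell to 3254 genes, of which 2683 had 1 region, 421 had 2 and 150 had at least 3. Hmcn2, which encodes the extracellular matrix protein hemicentin-2, had the most, 10 of its 66 distal regions and none of the TRF2KO-only class. Their folds were low, from 2.99 to 5.52 in Control replicate 1 and from 2.88 to 4.50 in replicate 2, and each of the 10 had a TRF2KO region from another caller. Zbtb16, a zinc finger transcription factor gene, had 8 of 55, with folds of 2.53 to 6.90 and of 2.88 to 6.48. Igf1r, the receptor of insulin-like growth factor 1, had 7 of 56, all in its introns, and 3 of them held the E-box. Epb41l3, a membrane skeleton gene, had 5 of 20, with folds of up to 7.82 and 7.20. Fndc3b had 5 of 25, and Rapgef1, an exchange factor for Rap1, had 5 of 27. Foxo3, a forkhead factor tied to stem cell quiescence, had 5 of 40, all in its introns. Mir7018 and Gm14314 also had 5, and 4 of those of Mir7018 lay in introns of Hspg2, the perlecan gene. Hivep3 and Pde4d, outside the 10 by their larger totals, also had 5, of 54 and 69. The E-box was in 1 to 3 of the regions of each of the 10 genes with the most.

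Most Control-only regions were not in a run of neighbouring ones. With gaps under 50 kb, 2554 (63.2%) stood alone, 462 pairs formed, and 157 chains held 3 or more, 560 regions in all. The longest run, of 10 regions, covered 109 kb over Hmcn2 at chr2:31320101-31428866. A run of 9 covered 134 kb over Foxo3 and Gm9855 at chr10:42115820-42250119, and 5 of its regions had no TRF2KO region from any caller. A run of 8 lay over Zbtb16 at chr9:48753689-48832530. There were 5 runs of 6. They lay at chr4:150716534-150804597, near Gm13049 and Gm16079, at chr5:118676528-118810119, around Med13l, a Mediator kinase module gene, at chr7:67965827-68054831 over Igf1r, at chr16:92082144-92157930 near Slc5a3 and Mrps6, and at chr19:7062818-7133780 near Flrt1 and Macrod1. The E-box was in 3 of 10 windows of the Hmcn2 run, 2 of 9 of the Foxo3 run and 1 of 8 of the Zbtb16 run. It was in 1 of 6 in the chromosome 4 run and in 5 of 6 in the Med13l run, against 34.8% of all Control-only windows. It was not counted in the remaining runs of 6. In the order given, these 8 runs spanned 51, 44, 40, 27, 19, 19, 20 and 28 distal regions of any class. Between 4 and 17 of those in each run were shared by all 4 libraries. The Igf1r run held 1 TRF2KO-only region and the other runs held 0, where that class made up 1.22% of all distal regions. No number expected from the density of regions was worked out.

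Genes of the muscle stem cell programme held Control-only regions at about the background rate of 5.21%. The list of MuSC identity and quiescence genes had 26 among 442 distal regions, or 5.88% (3.88 to 8.50), at 15 of its 46 genes. These included Pax7, Calcr, Cxcr4, Chrdl2 and Rbpj. The strongest lay in an intron of Foxo3, with folds of 6.90 and 7.56. One 8297 bp from Cdh15, which encodes M-cadherin, had 5.29 and 5.40, and one 3184 bp from Fgfr4 had 5.52 and 5.22. Of the 26 windows, 10 held the E-box and 5 an AP-1 match.

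Notch pathway genes had 11 among 133 distal regions, or 8.27% (4.20 to 14.3). The strongest lay in an intron of Numb, an inhibitor of Notch, with folds of 9.44 and 8.64 and 2 E-boxes. Those nearest to the target gene Hey1 and to the receptor gene Notch2 were weaker, at 4.37 and 4.14 and at 4.60 and 3.78. Sarcomere and muscle differentiation genes had 10 of 135, or 7.41% (3.61 to 13.2). In Ttn, the titin gene, the region lay over an exon, with folds of 6.67 and 6.12. Regions in introns of Myom1 and Actn2 had 5.98 and 6.12 and 7.36 and 5.22, and Myog and Myf6, factors of the MyoD family, were nearest to at least 1 each.

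Growth factor, Wnt and TGF-beta genes had 32 of 535, or 5.98% (4.13 to 8.34). The strongest were in an intron of Acvr1, a BMP receptor gene, with 7.13 and 8.28, and nearest to Fzd5, a Wnt receptor gene, with 6.67 and 6.12. A region in an intron of Smad1, which transmits BMP signals, had 5.52 and 6.30. Extracellular matrix and niche genes had 22 of 471, or 4.67% (2.95 to 6.99), among them regions nearest to Adamts1 (8.51 and 7.02), Vcan (6.21 and 6.30) and Col6a3 (5.52 and 5.76). Axon guidance and cadherin genes had 18 of 526, or 3.42% (2.04 to 5.35), with Plxna2 at 6.21 and 5.40 and Cdh13 at 5.06 and 6.66. AP-1 and immediate early genes had 5 of 79, or 6.33% (2.09 to 14.2), nearest to Egr1, Ier3, Dusp1, Maff and Myc. The intervals of 13 of the 14 lists held the background rate.

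The shelterin and telomerase list had 1 region among 13. It lay in an intron of Terf1, which encodes TRF1, another telomere-binding protein of shelterin, 3699 bp from a start, with folds of 5.52 and 6.30, an E-box, and no TRF2KO region from any caller. Terf2 itself had 2 distal regions and neither was Control-only. Marker genes of other cell types held small numbers, at shares on both sides of the background. Endothelial genes had 0 of 95, which allows a share of up to 3.16% by a limit of 3 counts, and immune genes 0 of 22, which allows up to 13.6%. Fibroblast genes had 5 of 57 (8.77%, 2.91 to 19.3), all with a lower fold of at most 4.50, and tenocyte genes had 3 of 28 (10.7%, 2.27 to 28.2), the highest share of the 14 lists. Smooth muscle and pericyte genes had 2 of 58 (3.45%, 0.420 to 11.9) and glial genes 2 of 30 (6.67%, 0.818 to 22.1), with Sox10 at 4.83 and 4.86.

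The E-box and AP-1 contrasts between Control-only and TRF2KO-only regions kept their direction when the lists were cut to equal length, which removes the difference in peak number. Then 3072 Control-only and 1313 TRF2KO-only distal regions remained, with the E-box in 37.6% and 17.9% and AP-1 in 11.1% and 18.4%. With GoPeaks in place of MACS there were 3037 and 522 regions, with the E-box in 36.4% and 14.0%. With SEACR there were 120 and 257, so the order of the classes was reversed, and the E-box was in 10.0% and 12.1%. GoPeaks and SEACR windows were centred on the middle of the region instead of a summit. Their motif shares are therefore not like for like with the MACS shares. Leaving out 1 library loosened the rule, and all 4 choices moved the count by over 1.5 times, to 15318 without Control replicate 1, 9390 without Control replicate 2, 7346 without TRF2KO replicate 1 and 6206 without TRF2KO replicate 2. The E-box share was then 25.2%, 28.4%, 33.3% and 33.2%, above that of TRF2KO-only regions each time. Without Control replicate 1 it was below, and without Control replicate 2 close to, the 28.0% of all distal regions. The AP-1 share of Control-only regions exceeded that of TRF2KO-only regions without TRF2KO replicate 1, at 11.9% and 10.0%.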

How the data were processed

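The 4 ATAC-seq and 3 CUT&Tag libraries were used as peak lists, so no table of reads per region entered. Per the submitters' processing notes, the ATAC reads were aligned to mm10 (GRCm38) with Bowtie2 2.5.4, filtered with Picard 3.1.1 and SAMtools 1.10, and called with MACS3 3.0.2 and SEACR 1.3; GoPeaks is named in the methods of the study, and the CUT&Tag notes name Bowtie2 2.4.4 and MACS3 3.0.0. Caller thresholds and a transposase shift are not given in the sources used here.

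MACS lists, called by the authors per library, hold the deposited fold ratio at each summit, the deposited -log10 p and -log10 q, and a deposited score that was not used. SEACR regions carry the authors' coverage signal, which was not used either, and GoPeaks regions positions only. The authors' DiffBind 3.10.1 consensus lists were taken as pooled per genotype, and their deposited score was not used.

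Python 3.11.15 with pandas 2.3.3, numpy 2.4.6 and scipy 1.17.1 was used. ATAC folds equal (pileup + 1)/(background + 1) with 1 background per library, which gave whole pileups for 100% of peaks with -log10 p under 200 (tolerance 0.05). Overlap meant at least 1 bp, and ENCODE blacklist regions were not removed. Place, distance and nearest start came from GENCODE M21, and motifs were searched in windows of 100 bp on either side of the summit. With GoPeaks or SEACR in place of MACS, the middle of the region took the place of the summit. Merging, distances, pileups and motif search were tested on simulated data. Samples were grouped by title. The design text gives 2 biological replicates per ATAC group.

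The members, gene lists and motifs were chosen with earlier results of these data known, so none is independent support. Named regions and genes were the 15 of highest lower Control fold, the 5 such with a TRF2 region, up to 3 per gene list, the 10 genes and 5 chains with the most (3 tied chains were added after their values were seen), and 3 on each side of the 3-kb limit, except that some of these are not reported here. The 10 forms of CANNTG, their flanking bases, the G+C range, the fold ranges and the grading by libraries were added after the data were seen. Alternatives were stricter thresholds, equal list lengths, other callers, other distances, a merging gap, a wider window, and leaving out each library.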

Additional observations from a re-analysis of the deposited data

How the results depend on the processing

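The E-box share of Control-only regions exceeded that of TRF2KO-only regions in 14 of 15 settings that gave both classes, the exception being SEACR. The SEACR and GoPeaks settings differ from the others in their windows too, which were centred on region middles. The AP-1 share was lower in 14 of 15, the exception being the setting without TRF2KO replicate 1, and Control-only regions outnumbered TRF2KO-only regions in 12 of 13, the exception again being SEACR. The causes were not tested.

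The number of Control-only distal regions was 120 with SEACR, 2304 with both Control peaks at -log10 q of at least 5, 2644 with no TRF2KO region from any caller, 2606 beyond 10 kb from starts, and 6206 to 15318 with 1 library left out, where fewer lists must hold or lack a peak. The E-box share was 44.2% in a window of 200 bp on either side, 36.4% with GoPeaks, 10.0% with SEACR, 37.8% with all lists at -log10 q of at least 5, 38.9% with that limit on Control peaks only, 37.6% with lists of equal length, 37.6% with no TRF2KO region from any caller, and 25.2% to 33.3% with 1 library left out. Chosen after seeing the data, the members that GoPeaks placed in Control alone gave 42.7% and windows of 45 to 55% G+C gave 36.4%. The AP-1 share was 15.6% in that wider window, 9.61% with GoPeaks, 4.17% with SEACR, and 8.75% to 11.9% with 1 library left out. The CTCF share was 0 of 120 with SEACR, which allows up to 2.5% by a limit of 3 counts, 2.34% with Control peaks at -log10 q of at least 5, 1.13% with no TRF2KO region from any caller, and 0.986% (without Control replicate 1) to 2.31% (without TRF2KO replicate 1). The intron share was 55.5% with GoPeaks, 55.7% with no TRF2KO region from any caller and 55.2% beyond 10 kb. The share with a TRF2 region was 4.17% with SEACR, 0.223% with TRF2 peaks at -log10 q of at least 5, 2.501% with a peak in either TRF2 library, and 0.260% with lists of equal length. The share with a TRF2KO region from another caller was 31.4% with Control peaks at -log10 q of at least 5, 32.1% with equal lengths, 37.6% beyond 1 kb, 29.2% beyond 10 kb, 28.4% with peaks within 500 bp merged, and 34.4% to 49.4% with 1 library left out. All other settings moved these values by less than their counting interval, or counts by less than 1.5 times.

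No paired analysis was made, as no test was run. The lower Control fold of 23 members was under the lowest fold listed in TRF2KO, and 2157 of 4038 had both folds at least 1.5 times it.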
